A study of Mus musculus with 26 samples.

Results

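KLF4 peak lists of mouse embryonic stem cells that lack Klf4 and carry wild-type KLF4 again were set against lists from Klf4 knockout cells. The lists come from PeaKDEck, a program that compares read density at a place with its surroundings and gives each peak a p-value. Peaks of the 4 lists that overlapped by at least 1 bp were merged into 32315 regions. Of these, 7513 were members of a set: 2204 had a peak in both WT lists and in neither KO list (6.82% of the 32315), 4679 in both KO lists and in neither WT list (14.5%), and 630 in all 4 lists (1.95%). They are named WT-only, KO-only and shared regions here, and the sets are a description of these lists.

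KLF4 is a zinc finger transcription factor of the Krüppel-like family that binds GC-rich DNA. In embryonic stem cells it is part of the network around OCT4, SOX2 and NANOG that keeps naive pluripotency. The related factors KLF2 and KLF5 bind much the same DNA, and embryonic stem cells without KLF4 alone still renew themselves.

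The study joined tagmentation with bisulfite sequencing so that a read carries both a peak signal and DNA methylation. By their sample labels, all cells were KH2 embryonic stem cells grown with LIF and serum on irradiated feeders, which were removed by pre-plating. The text of the paper does not name the strain of the knockout line. The WT group (2 samples) was Klf4 -/- with mouse Klf4 delivered by a lentivirus behind a tetO promoter with ires-tdTomato, selected with puromycin and induced with doxycycline for 2 days. The KO group (2 samples) was Klf4 -/- and was immunoprecipitated with the KLF4 antibody R&D AF3158, and whether it received the virus, puromycin or doxycycline is not stated. A mutant group (2 samples), used to describe the sets, was made as the WT group with Klf4 carrying R462A. Accessibility, methylation, CTCF peaks and expression used here come from KH2 cells with their own Klf4, and not from the rescued or knockout cells. Replicates were merged, except where ATAC or single M-ATAC samples are named.

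These limits stand before every result. The samples that hold the WT and mutant lists are titled and described as M-ATAC, which tags open chromatin, while their library names are those of KLF4 M-ChIP and the methods tie PeaKDEck to KLF4, so that they were read as KLF4 peaks with this doubt. WT and mutant libraries were made with methylated adaptors and bisulfite converted and KO libraries with Nextera and not converted, so that genotype and library chemistry cannot be told apart. Reads were subsampled to a depth that is not given, and the lists hold no read counts. The paper left out ChIP-seq peaks found in Klf4 -/- cells, in case the KLF4 antibody was not specific. KO-only and shared regions are therefore not read as KLF4 binding here.

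The Klf4 gene itself (chr4:55527143-55532466 in GRCm38) had no peak over any exon in the 4 lists, nor in the 2 lists of cells with the R462A mutant of KLF4. Neither the knockout nor the transgene could therefore be checked from the lists. In wild-type cells Klf4 stood at 270.4 TPM, a measure of transcript abundance scaled for gene length and depth. A region 49292 bp past the 3′ end of the gene, at chr4:55477151-55477850, had a peak in all 4 lists, with p of 2.28e-06 and 1.51e-05 in WT and of 1.31e-05 and 1e-12 in KO. A neighbour at chr4:55475201-55476000 was KO-only and reached the smallest value the program wrote, 1e-12, in both KO lists. Both places were open in wild-type M-ATAC, with fold enrichments of 8.08 and 7.11, and neither held a KLF core, the motif described further on.

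Among 36 genes of the pluripotency network, 4 were nearest to a WT-only region, 19 to a KO-only region and 6 to a shared region. Those are 11.1% (Wilson 95% interval, for counting error only, 4.41 to 25.3), 52.8% (37.0 to 68.0) and 16.7% (7.87 to 31.9) of the list, and 10 genes lay beside none. Of 5748 protein-coding genes with at least 20 TPM, the shares were 8.79%, 16.6% and 3.24%, and of all 55450 genes they were 3.63%, 7.31% and 1.04%. More of the pluripotency genes thus lay beside KO-only than beside WT-only regions, of which there are fewer. The list has a median of 112 TPM against 49.9 TPM for the genes with at least 20 TPM, and the part of expression in this count was not tested.

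The 4 WT-only genes of that list were Fgf4, Prdm14, Tfcp2l1 and Id1. Fgf4 encodes the growth factor by which stem cells drive their own exit from pluripotency, and its region (chr7:144864501-144865200) lay in an exon 3465 bp past the transcription start, with p of 4.97e-05 and 3.48e-05. Prdm14, a regulator of naive and germ cells, had a region 23037 bp past its start (chr1:13103851-13104400) at p of 1.26e-05 and 6.87e-05. Tfcp2l1, a transcription factor of the naive state, had a region 69 bp upstream of its start (chr1:118627601-118628150) at p of 4.97e-05 and 3.48e-05. Id1, an inhibitor of basic helix-loop-helix factors that BMP signals induce, had a region 2875 bp past its start (chr2:152738901-152739350) at p of 3.38e-05 and 6.87e-05. The first 3 lay in wild-type M-ATAC peaks and held a KLF core, and the Id1 region did neither.

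KO-only regions lay beside 19 of the 36 pluripotency genes. Neither Sox2 nor Nanog was among the listed genes with a region in any set. Pou5f1, which encodes OCT4, had a KO-only region 3142 bp upstream of its start (chr17:35502601-35503150) with p of 7.67e-06 and 1.56e-05. Esrrb, a nuclear receptor of naive cells, had 2 such regions, 3816 bp upstream of a transcription start and 884 bp past a start, both with a KLF core. Klf2 had 2 and Klf5 had 1, all intergenic. Tet1, which oxidises methylated cytosine, had 2, one of which, 3883 bp upstream of its start, reached 1e-12 in both KO lists. The same smallest value was reached in both KO lists for Dppa2, Gdf3, Lin28a and a Socs3 region. Dppa3, Dppa5a, Lefty1, Mycn, Sall4, Tcl1, Tdgf1, Tet2, Tfcp2l1 and Utf1 complete the list.

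Shared regions lay beside Zfp42, Nodal, Lefty2, Fbxo15, Mycn and Socs3. Zfp42, the naive marker also called Rex1, had its region 71 bp upstream of its start (chr8:43306701-43307400), with p of 4.86e-05 and 1.51e-05 in WT and 1e-12 in both KO lists. Nodal, a TGF-beta ligand, had one 1871 bp upstream (chr10:61415751-61416450) with p of 1.11e-05 and 1.02e-05 in WT and of 1.15e-08 and 1.13e-08 in KO. Lefty2 encodes an inhibitor of Nodal. Among KLF genes, Klf13 had 1e-12 in both WT lists against 7.99e-06 and 1.51e-05 in KO. The region 37967 bp past the Klf3 start had 1.13e-08 and 2.26e-08 against 7.67e-06 and 5.94e-06. At Klf11 the values were 1.57e-10 and 3.48e-05 in WT against 7.99e-06 and 1.57e-05 in KO. The Klf3 region 237 bp upstream had 1e-12 in both WT lists and KO replicate 1, and 2.25e-05 in KO replicate 2. Over all 630 shared regions the median −log10 p was 6.55 and 6.25 in the WT lists, with KO replicate 1 above them at 12 and KO replicate 2 below them, so that no order of the groups is read from p at single genes.

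Several genes had peaks of different sets at different places. The Tfcp2l1 region of the WT-only set stood at the start, and a KO-only region without a KLF core lay 1369 bp upstream of it (chr1:118626251-118626900). Klf3, a KLF repressor, had a shared region 237 bp upstream of its start, another shared region 37967 bp past it, a WT-only region at 20617 bp (chr5:64847201-64847650) and a KO-only region at 51467 bp, and all 4 held a KLF core. In the epithelial list of 24 junction genes, Cdh1 (E-cadherin) had a WT-only region in an intron 20033 bp past its start (chr8:106624001-106624350) and a KO-only region at 14158 bp. Pkp2, a desmosome protein, had a WT-only region 142 bp upstream of its start (chr16:16212851-16213500) and a KO-only region in an intron. Of these WT-only and KO-only pairs the Tfcp2l1 regions alone lay within 5 kb of each other, and shared and KO-only regions did so at Socs3, Etv5 and Mycn. Over the sets, 5.49% of WT-only regions lay within 5 kb of a KO-only region and 5.63% within 5 kb of another WT-only region.

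The other lists were smaller. Of the 24 junction genes 2 had a WT-only region, 9 a KO-only region (among them Cldn4, Krt8 and Jup) and 1, Krt18, a shared region, which are 8.33%, 37.5% (21.2 to 57.3) and 4.17%. Of 12330 protein-coding genes with at least 1 TPM the shares were 8.41%, 14.9% and 2.73%. In the KLF and SP family of 26 genes, WT-only regions lay nearest to Klf3, Klf9 and Klf14 (11.5%). KO-only ones lay nearest to Klf2, Klf3, Klf5, Klf14, Sp1 and Sp2 (23.1%), and shared ones to Klf3, Klf11 and Klf13 (11.5%). Of 11 genes of primed pluripotency, Etv4, Etv5 and Lef1 had KO-only regions (27.3%, 9.75 to 56.6) and Etv5 a shared one (9.09%). T, the mesoderm factor Brachyury, was the 1 of 13 lineage genes with a region in a set (7.69%, 1.37 to 33.3), WT-only and 31690 bp past its start. None of the 65 regions beside listed genes had a peak in either mutant list. That was so for 82.1% of WT-only, 98.6% of KO-only and 79.0% of shared regions as a whole, and for 92.1% of all 32315 regions.

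KLF cores set the WT-only regions apart from the KO-only regions. A core was any of 4 spellings, GGGTGTGG, GGGCGTGG, GGGTGGGG and GGGCGGGG, on either strand in the 300 bp around the midpoint. It stood in 51.0% of WT-only regions (1123 of 2204, Wilson 95% interval 48.9 to 53.0), in 21.9% of KO-only regions (1023 of 4679, 20.7 to 23.1) and in 55.1% of shared regions (347 of 630, 51.2 to 58.9). All 32315 regions had 25.5% and all 300 bp windows of the genome 6.03%. No test was made between sets, since regions are not replicates.

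In WT-only and shared regions the core was concentrated at the midpoint. Within 50 bp of it there were 4.90 cores per kb in WT-only and 5.11 in shared regions, against 1.01 in KO-only regions, which had 1.06 at 50 to 100 bp. From 300 to 450 bp away the densities were 0.697, 0.810 and 0.538 per kb. In the 300 bp on either side, 17.1% of WT-only, 22.2% of shared and 12.8% of KO-only windows held a core. WT-only and shared regions were thus alike at their centre, and KO-only regions rose far less over their flanks.

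The spellings differed most where they hold a CpG. GGGCGTGG stood in 22.1% of WT-only, 16.8% of shared and 2.54% of KO-only regions, against 0.655% of genome windows. GGGCGGGG stood in 23.1%, 28.3% and 5.34%. Of the spellings without CpG, GGGTGTGG stood in 14.8%, 14.6% and 6.20%, and GGGTGGGG in 8.35%, 15.9% and 10.1%, with overlapping intervals for WT-only and KO-only regions. A core with CpG was found in 38.9% of WT-only and 7.63% of KO-only regions, and a core without it in 21.9% and 15.6%. CpG content differed as well, with means of 9.36 CpG per 300 bp in WT-only and 5.32 in KO-only regions, and its part in the motif shares was not tested.

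The difference in cores held at promoters and away from them. At promoters, within 3 kb of a transcription start, 65.9% of WT-only and 28.6% of KO-only regions held a core. Elsewhere it was 38.6% and 18.5%. In regions with under 50% repeat bases the shares were 62.1% and 24.0%. The size of the difference rested on the agreement of the WT replicates: with WT replicate 1 as the single WT list, 25.1% of its regions outside the KO lists held a core against 23.8% of KO-only regions, and with WT replicate 2 alone the shares were 36.7% and 22.2%.

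Motifs of other factors were more frequent in KO-only than in WT-only regions. The POU octamer ATGCAAAT, which OCT4 binds, stood in 4.38% of KO-only, 2.22% of shared and 1.23% of WT-only regions, against 3.03% of all regions and 2.61% of genome windows. The AP-1 motif, TGACTCA or TGAGTCA, stood in 9.47%, 4.13% and 4.22%, against 6.54% of all regions and 4.66% of genome windows. The ESRRB motif TCAAGGTCA stood in 1.67%, 2.22% and 0.862%, against 1.31% of all regions and 0.629% of genome windows. A match is a description of letters and not a site of binding.

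Sequences around the core nearest to the midpoint are shown for the WT-only regions of listed genes that hold a core. Each region has its gene by the nearest transcription start, up to 31690 bp away (T), which does not show a link between them. They were read from GRCm38 on the strand on which the core has the spelling given, with that nearest core alone in capitals. The 300 bp around the midpoint held 8 cores at Pkp2, 3 at Tfcp2l1 and 2 at Klf3. Further copies within these stretches are left in lower case, which does not mark repeats here. The Fgf4 stretch is short because it lies in a UTR. The first is chr16:16213178-16213277 on the minus strand, followed by chr17:8467052-8467151 (plus), chr1:118627838-118627937 (minus), chr7:144864720-144864749 (minus), chr8:106624111-106624210 (plus), chr1:13104051-13104150 (minus) and chr5:64847376-64847475 (plus).
Pkp2: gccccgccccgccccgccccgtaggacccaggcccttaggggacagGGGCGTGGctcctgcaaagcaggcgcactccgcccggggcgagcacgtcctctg
T: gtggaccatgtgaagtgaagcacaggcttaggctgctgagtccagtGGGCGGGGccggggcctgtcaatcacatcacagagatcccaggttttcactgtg
Tfcp2l1: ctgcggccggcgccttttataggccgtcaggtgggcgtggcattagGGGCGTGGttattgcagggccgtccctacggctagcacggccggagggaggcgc
Fgf4: acctaaggagtGGGCGTGGtgggcaatgcc
Cdh1: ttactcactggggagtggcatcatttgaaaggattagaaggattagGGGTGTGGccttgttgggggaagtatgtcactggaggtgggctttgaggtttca
Prdm14: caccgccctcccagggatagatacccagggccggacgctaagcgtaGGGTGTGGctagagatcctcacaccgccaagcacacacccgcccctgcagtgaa
Klf3: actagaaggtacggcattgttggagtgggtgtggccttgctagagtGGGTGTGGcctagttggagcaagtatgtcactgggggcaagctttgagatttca

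The Cdh1 and Klf3 stretches were identical at 53 of 100 bases when laid core on core, and the other pairs of the 100-base stretches at 23 to 38. These figures include the core itself, whose letters are identical by construction where stretches have the same spelling. Repeat bases, written in lower case in the reference, made up 63% and 48.7% of the 300 bp around the midpoints of these regions. Over the whole WT-only set, the copy nearest to the midpoint lay in repeat bases in 31.8% of regions with GGGTGTGG, in 9.67% of those with GGGCGTGG and in 56 of the 510 with GGGCGGGG. GGGTGTGG, the core of both stretches, thus lay in repeats more often than the spellings with CpG.

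The widest of the strongest WT-only peaks were of another kind. In 116 WT-only regions both peaks reached 1e-12, and of these 31.0% held a KLF core, 43.1% lay in M-ATAC peaks, 37.1% were at least 50% repeat and 44.0% had peaks in both mutant lists. The 10 named here are the widest of the 116 and do not stand for the rest, since all 10 had peaks in both mutant lists. None held a KLF core, 1 lay in a wild-type M-ATAC peak, and 8 were at least 50% repeat. The first was at chr10:3115901-3117250, 2411 bp past the start of Gm3318, with repeat bases throughout the 300 bp around its midpoint. The second, 4207 bp upstream of Tmem125 (chr4:118547601-118548900), had no repeat bases in that window and lay in both an M-ATAC peak of fold 5.75 and a CTCF peak. The others lay nearest to 2700054A10Rik, Gm13717, Gm11168, Gm30674, Gm16505, Gm26870, Gm26375 and Gm24878.

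Recurrence in the mutant lists divided the WT-only set. Of 2204 regions, 198 (8.98%) had a peak in both mutant lists, against 694 of all 32315 regions (2.15%). Of the 198, 1 held a KLF core (0.505%, 95% interval 0.0892 to 2.80), 68.7% were at least 50% repeat and 5.56% lay in M-ATAC peaks. The 1810 regions with no mutant peak held a core in 61.3%, were at least 50% repeat in 16.2% and lay in M-ATAC peaks in 59.8%. Among shared regions, 107 of 630 had peaks in both mutant lists, and 4.67% of those held a core against 67.7% of the 498 with none. KO-only regions had a peak in both mutant lists in 4 of 4679 cases (0.0855%). The mutant lists were made by the same chemistry as the WT lists, which is not the chemistry of the KO lists.

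The 10 named shared regions are likewise the widest of 72 that reached 1e-12 in every list, of which 30.6% held a KLF core and 36 had peaks in both mutant lists. All 10 had peaks in both mutant lists and lay at promoters, here any place within 3 kb of a start. None held a KLF core, 1 was at least 50% repeat, and 3 lay on the mitochondrial genome, nearest to mt-Ti, mt-Nd5 and mt-Co1. That genome is 16299 bp long, so that a promoter place there says little. CT010467.1 and Gm26917 lay within 5 kb of each other on chromosome 17, and Sfi1 appeared with 2 regions on chromosome 11. Pisd-ps2, Gm10801 and Gm10800 complete them.

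The 10 named KO-only regions are the widest of 794 at 1e-12 in both KO lists, of which 89.2% lay in M-ATAC peaks and 20.5% held a KLF core. Apart from a region on the mitochondrial genome at mt-Tt, all lay in wild-type M-ATAC peaks, none had a peak in both mutant lists, and 3 held a KLF core. Shb, an adaptor protein of tyrosine kinase signalling, had its region 332 bp upstream of a start (chr4:45489601-45490650), with a core and an M-ATAC fold of 8.20. Akap12, a scaffold of protein kinase A with 317 TPM, had its region 16879 bp upstream (chr10:4249051-4249950). Gm42855, AC144861.1 and AC122270.3 had the highest M-ATAC folds, 29.2, 27.8 and 18.7, in windows of 80%, 92% and 88% repeat bases. The others lay nearest to 5330417H12Rik, Gm12746, Gm4756 and Gm3828.

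Open chromatin of wild-type cells held more of the knockout peaks. Merged M-ATAC peaks overlapped 1103 of 2204 WT-only regions (interval of the percentage 48.0 to 52.1), 72.2% of KO-only regions (70.9 to 73.5) and 75.9% of shared regions (72.4 to 79.1), against 40.4% of all regions. With the peaks found in both Nextera ATAC samples, the shares were 27.0%, 39.2% and 52.4%. Where a WT-only region did lie in open chromatin, its M-ATAC fold enrichment had a median of 10.8, against 9.77 for KO-only, 11.6 for shared regions and 9.89 for all regions of the 4 lists in M-ATAC peaks.

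WT-only regions inside and outside M-ATAC peaks differed in sequence. The M-ATAC list was filtered against a blacklist and holds no mitochondrial peak, so that a region outside it is not shown to be closed. A KLF core stood in 73.8% of the 1103 in M-ATAC peaks and in 28.1% of the 1101 outside, and at least 50% repeat in 6.89% and 44.0%. Among KO-only regions the core shares were 23.8% and 16.8%. At promoters the sets were alike in openness, with 72.5% of WT-only and 74.0% of KO-only regions in M-ATAC peaks. Away from promoters they parted, with 31.5% and 71.3%. The gap between the sets as a whole narrowed when the KO lists were not required to agree: 51.6% against 56.2% without KO replicate 1, and 51.8% against 59.2% without KO replicate 2. It widened without WT replicate 1, to 32.4% against 72.0%, and without WT replicate 2, to 21.2% against 73.2%.

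By place, WT-only and shared regions were nearer to transcription starts. Promoters held 45.3% of WT-only (43.3 to 47.4), 33.7% of KO-only (32.3 to 35.0) and 61.3% of shared regions (57.4 to 65.0), against 32.6% of all regions. The median distance to the nearest start was 4161 bp, 6898 bp and 1299.5 bp. Intergenic places held 26.7%, 35.3% and 18.3%, and introns 25.6%, 28.9% and 19.4%. Without WT replicate 2 the order of the first 2 sets turned, with 29.0% of WT-only and 35.5% of KO-only regions at promoters.

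Nearest genes did not separate WT-only from KO-only regions in a stable way. In wild-type cells the nearest gene had a median of 4.36 TPM for WT-only regions (95% interval of the median 3.40 to 5.44, 1962 regions with a value), 2.56 TPM for KO-only (2.05 to 3.10, 4187) and 7.74 TPM for shared regions (5.58 to 11.4, 580). All regions of the 4 lists had a median of 1.62 TPM (1.44 to 1.79). Taking the nearest protein-coding gene, the order turned to 9.37 TPM for WT-only and 10.9 TPM for KO-only regions, and with genes of at least 1 TPM alone it was 18.6 against 20.2. It turned as well without WT replicate 1 (1.97 against 2.63) and without WT replicate 2 (0.740 against 2.99). At promoters the medians were 12.0 TPM and 10.8 TPM.

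Methylation in open chromatin was low in every set. In wild-type M-ATAC, over cytosines with at least 5 reads, 0.704% of reads were methylated in WT-only regions (37000 cytosines in 1053 regions), 2.49% in KO-only (39207 in 2940) and 0.916% in shared regions (18056 in 466). All M-ATAC peaks had 1.85%. Cytosines methylated in every read, 15946 of 1636992 at any coverage, are left out, which lowers each value. Promoters were the least methylated, at 0.448% in WT-only and 0.955% in KO-only regions, against 4.10% and 6.46% elsewhere. The median coverage of these cytosines lay between 10 and 16 reads in the sets and was 9 reads in all M-ATAC peaks. Regions outside M-ATAC peaks have no value, so that these figures describe the open members of each set.

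Width and p belong to the values that made the lists and are given as description. Regions had a median width of 550 bp in WT-only, 600 bp in KO-only and 750 bp in shared regions. The larger p of a region had a median of 3.82e-05 in WT-only and 1.57e-05 in KO-only regions. The smallest p written, 1e-12, was reached in every peak of 5.26% of WT-only, 17.0% of KO-only and 11.4% of shared regions. Repeat bases made up a mean of 28.4% of the 300 bp in WT-only and 22.5% in KO-only regions, while the medians ran the other way, at 9.33% (8.33 to 10.3) and 12% (11 to 13). Without KO replicate 1 the means were 27.3% and 27.0%.

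The replicates of a group overlapped unequally. Of the merged peaks of WT replicate 1, 36.4% had a peak in WT replicate 2, and 28.9% the other way. For KO the shares were 66.0% of replicate 1 and 40.9% of replicate 2. Peaks at 1e-12 recurred in the other replicate in 97.3% of cases for WT replicate 1 and in 95.8% for KO replicate 1. They were not confined to their group. Those of each WT list overlapped a peak of each KO list in between 53.7% and 55.9% of cases. Those of each KO list overlapped a peak of each WT list in between 14.5% and 20.9%. Of the 5429 regions of WT replicate 1 alone 9.58% lay in M-ATAC peaks, and of the 7429 of WT replicate 2 alone 27.2%, so that the replicates of the WT group differed in openness. Just outside the sets, 206 regions had a peak in both WT lists and KO replicate 1, and 342 in both WT lists and KO replicate 2, and 65.5% and 58.2% of them held a KLF core.

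Whole lists, which do not use the sets, were compared sample by sample. The WT lists held 9843 and 12365 peaks and the KO lists 9165 and 14841, a mean of 11104 ± 1783 against 12003 ± 4014 (SD, n = 2 each; exact permutation test, two-sided, p = 1). The groups overlapped. With 2 samples against 2 this test cannot give a p under 0.333, so that none of the 9 whole-list comparisons could pass 0.05.

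In 4 of the 9 measures the groups did not overlap. For each such measure the exact permutation test gives p = 0.333, the rate at which random labels separate the groups. Width and p, among these 4, also belong to the values that made the lists. Peaks in wild-type M-ATAC peaks made up 27.8% and 39.1% of the WT lists and 61.0% and 57.4% of the KO lists, a difference of -25.8 percentage points (exact permutation test, p = 0.333, 0.750 after Benjamini-Hochberg over 9). KLF cores stood in 28.9% and 39.4% of WT peaks and in 25.9% and 21.7% of KO peaks, a difference of 10.4 points (the same p). Median widths were 350 and 400 bp in WT and 450 bp in both KO lists. Median −log10 p was 4.31 and 4.29 in WT and 4.99 and 4.61 in KO. For the core the WT samples lay as far apart as the means of the groups.

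The other 4 measures overlapped. Promoters held 33.2% and 41.1% of WT peaks and 38.0% and 32.7% of KO peaks (exact permutation test, p = 0.667, adjusted 0.857). Repeat bases made up 36.0% and 26.3% of the windows in WT and 21.4% and 27.1% in KO (exact permutation test, p = 0.667). The median TPM of the nearest gene was 1.29 and 2.90 in WT and 3.22 and 2.15 in KO (exact permutation test, p = 0.667). Mean GC content was 49.0% ± 1.33 in WT and 48.7% ± 1.83 in KO (SD, n = 2 each; exact permutation test, p = 1). The direction of the difference in promoters, TPM, GC and the number of peaks changed when single replicates were left out.

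Chromosome 8 held more peaks per base than the other autosomes in every PeaKDEck list. The ratio was 3.85 and 3.15 in the WT lists, 2.38 and 2.20 in the KO lists and 4.41 and 4.63 in the mutant lists, while wild-type M-ATAC peaks had 0.999. WT-only regions had 2.98, KO-only 1.82 and shared regions 2.87. Without chromosome 8, 52.1% of 1893 WT-only and 21.9% of 4259 KO-only regions held a KLF core, and 52.5% and 72.8% lay in M-ATAC peaks. The cause of the excess was not tested.

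Markers of the wild-type cells were those of embryonic stem cells. All 7 stem cell markers were expressed, with 5394 TPM for Dppa5a, 657 TPM for Pou5f1, 461 TPM for Nanog and 8456 TPM over the list. Of 10 fibroblast markers, taken for the feeders, Fn1 had 612 TPM, Vim 176 TPM and Col1a1 48.7 TPM, with 914 TPM over the list. Lum and Dcn were lowest, at 0.0800 and 1.92 TPM. Stem cells also express Fn1 and Vim, the part of feeders was not tested, and no such values were analysed here for the rescued or knockout cells.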

How the data were processed

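By their methods, the authors trimmed reads (Trim Galore 0.4.4), aligned them to mm10 (Bismark 0.18.1 for converted libraries, bowtie2 for the others) and removed low-quality reads and duplicates (SAMtools 1.3). Each peak of the deposited PeaKDEck lists carries a p-value. The deposited M-ATAC and CTCF lists, called with MACS2, give a fold enrichment, which is a ratio to the local background. For each cytosine the authors' methylation table gives the percent methylated and a count of unmethylated reads, from which its reads were recovered except where all were methylated, and their expression table gives TPM of merged replicates.

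Peaks of the 4 lists were merged at 1 bp of overlap and classed by the lists they came from. Each region was given the gene of the nearest transcription start of GENCODE M21, by its midpoint, with promoter before exon, intron and intergenic. The 55450 genes were joined to TPM by Ensembl identifier (47187 matched). Sequence came from GRCm38, with both strands searched. Whole lists were compared by exact permutation tests over samples, two-sided, with Benjamini-Hochberg adjustment over 9 comparisons. Regions are not replicates, so sets were described by Wilson and order-statistic 95% intervals.

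Regions were named as the 10 of each set with the smallest larger p (ties by mean peak width, then position). Genes were named from the members of 5 lists (107 genes) nearest to a region of a set, of which 1 is not reported here, with the Klf4 locus in every list. Sequences came from the first named WT-only regions with a KLF core, not on chromosome 18. Since the first 10 held none, they came from the listed genes. The division by mutant peaks, repeats under cores, the likeness of stretches and chromosome 8 were chosen after their values were seen. Members and lists were chosen with earlier results of these data known.

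Alternatives changed the overlap, the definition of a region, list length, replicates, replicate block, chromosomes, accessibility list, promoter distance, gene filters, motif window, coverage minimum and repeat window. Scripts were tested on simulated data. Recovering reads from the percent replaced methylated read counts after values had been seen. M-ATAC and M-ChIP methylation of the rescued cells was not used here. Everything was run in python 3.11.15 with scipy 1.17.1, pandas 2.3.3 and numpy 2.4.6.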

Additional observations from a re-analysis of the deposited data

How the results depend on the processing

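Numbers of regions stayed within 1.5 times under 50% reciprocal overlap, intersection of the replicates, equal list lengths, autosomes alone and, chosen after seeing the data, without chromosome 8 or without regions with peaks in both mutant lists. With 50% of each list kept, by smallest p, there were 2763 KO-only and 348 shared regions, by construction fewer. With shared taken as at least 1 WT and 1 KO list there were 2609. Leaving out a replicate, by construction, gave 2411 to 9646 WT-only, 4825 to 12138 KO-only and 775 to 1008 shared regions.

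For whole lists, WT minus KO without each replicate in turn ranged from -3737 to 1939 peaks, from -2.17 to 5.71 points at promoters, from -1.01 to 1.57 points of GC and from -1.40 to 0.215 TPM, and turned direction in these 4: to 362 peaks and 0.215 TPM without WT replicate 1, to -2.17 at promoters and -0.658 of GC without WT replicate 2, and to 1939 peaks, -0.927 at promoters and -1.01 of GC without KO replicate 2. It ranged from -31.4 to -20.1 points in M-ATAC peaks, from 5.08 to 15.6 for KLF cores, from 2.06 to 11.8 for repeats, from -100 to -50 bp in width and from -0.689 to -0.306 in −log10 p. Equal list lengths kept every direction in the 8 measures they apply to, the number of peaks then having no value.

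The replicate block (WT 1 with KO 1, WT 2 with KO 2) gave the same differences, -25.8 points in M-ATAC peaks and 10.4 for KLF cores, with a sign-flip p of 0.5, the smallest it can give. The samples share only a number: 2 of 9 measures deviated the same way in both replicates 1.

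WT-only minus KO-only, alternatives for which were partly chosen after seeing the data: the M-ATAC share (-22.2 points) was -12.2 by both ATAC samples, -10.9 by 50% of the region, -18.2 at fold 5 and -17.8 without mutant-list regions, and -51.9 to -4.67 without single replicates. The promoter share (11.7) was 15.1 at 1 kb and -6.59 to 17.6 without single replicates. Median TPM (1.80) turned to -1.66 from 1 TPM up and -1.56 by protein-coding genes, was 3.11 without mutant-list regions, and was -2.25 to 3.05 without single replicates, turning to -0.665 without WT replicate 1. The KLF core share (29.1) was 22.7 in 100 bp, 38.1 under 50% repeat, 34.0 without mutant-list regions, 20.1 outside promoters and 1.26 to 34.5 without single replicates. Methylation (-1.78) was -1.97 at 1 read, -1.22 at 10 reads and -2.07 to -1.37 without single replicates. Repeat bases (5.89) were 3.66 over whole regions, 4.15 without chromosome 8, 2.25 without mutant-list regions and 0.341 to 15.0 without single replicates. The cause was not tested. Unknown depth after subsampling limits every count of peaks.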

Other observations

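CTCF peaks of wild-type cells, from M-ChIP, overlapped 7.99% of WT-only regions, 12.9% of KO-only regions and 19.2% of shared regions, against 7.78% of all regions. At listed genes, the shared regions beside Etv5, Lefty2 and Mycn lay in CTCF peaks and held no KLF core.

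The X chromosome held few regions: 8 WT-only, 94 KO-only and 6 shared. Relative to the autosomes other than chromosome 8, peaks per base came to 0.0589 for WT-only, 0.314 for KO-only and 0.155 for shared regions, against 0.362 for wild-type M-ATAC peaks. The whole WT lists had 0.0567 and 0.0796, the mutant lists 0.0328 and 0.0482, and the KO lists 0.228 and 0.304. The low value was thus not particular to the WT-only set, and its cause was not tested.

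Chosen after their values were seen, the genes nearest to the most WT-only regions were C130026I21Rik with 6 and Gm16026 with 5, neighbours on chromosome 1 (chr1:85244751-85264000 and chr1:85278201-85297450). None of these 11 regions held a KLF core or lay in an M-ATAC peak. Of the genes with 4 such regions, Cdh13, Gm21182 and Gm45876 had none with a core or in an M-ATAC peak, 2700054A10Rik had 2 with a core and 1 in an M-ATAC peak, and 1700016B01Rik had 4 and 3.

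In the single M-ATAC samples, peaks overlapped between 33.2% and 37.4% of WT-only regions, between 42.9% and 48.6% of KO-only regions and between 59.7% and 62.4% of shared regions, so that the order of the sets was the same in each of the 4.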
